A study of Capra hircus with 20 samples.

Results

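The 9 interferon-stimulated genes described here are MX1, MX2, ISG15, IFI6, IFIT2, IFIT3, RSAD2, IRF7 and IFI44. They were chosen by their symbols, with earlier results of these data known. They are 9 of the 21071 genes with expression values in the hypothalamus of female Jining grey goats. All 9 symbols matched a gene of the goat ARS1.2 annotation, and all 9 passed the filter of at least 0.1 FPKM (fragments per kilobase of exon, scaled to the mapped reads of the library) in at least 5 libraries, which 16771 genes passed. Each of 20 healthy goats gave 1 strand-specific library depleted of rRNA, with 5 goats each at 1 day (D1), 60 days (M2), 120 days (M4) and 180 days of age (M6). The goats came from 1 farm and were kept under the same feeding management, and the study followed the hypothalamus from birth to sexual maturation.

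Interferons are secreted proteins that warn neighbouring cells of viral infection. They bind receptors at the cell surface, the JAK kinases then activate transcription factors, which switch on a large set of genes whose products block steps of viral replication. A low level of this set is also kept up in healthy tissue, and in the brain neurons, astrocytes, oligodendrocytes, microglia and endothelial cells can all express it.

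No stage difference was called in these genes, as in nearly all genes tested, so this is not particular to the set. In the moderated F test of limma over the 4 stages, adjusted p-values lay below 0.05 for 0 of the 9 and unadjusted p-values for 0 of the 9, while over all genes tested 0.00596% were below 0.05 after adjustment and 10.4% before it. Values differed widely between single goats. MX1, ISG15, IFI6, IFIT3, RSAD2 and IFI44 were high together in 1 goat of M4 and, but for IFI6, in 1 goat of M6, and most of them were low in 1 goat of D1. The spread within a stage had a median SD of 0.80 on the log2 scale over the 9 genes, against 0.57 over all genes tested. Stage accounted for a median of 11.0% of the variance of these genes over the libraries and for 18.2% of that of all genes tested.

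The tissue itself was not uniform between libraries. The FPKM values of a library summed to between 260199 and 377479. Some markers of hypothalamic neurons were near 0 in part of the libraries: OXT, AVP and HCRT, which encode oxytocin, vasopressin and orexin, were all below 1 FPKM in 6 of the 20. Of the other peptide genes listed, PMCH and TRH were below 1 FPKM in 11 and 12 libraries, but SST in only 1 (median 10.4 FPKM). The summed FPKM of 5 oligodendrocyte markers went from 910.0 to 13950 among D1 libraries, from 2009 to 6868 in M2, from 422 to 8841 in M4 and from 617 to 14080 in M6. In bulk tissue, fewer cells of a type and less RNA per cell cannot be told apart.

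The genes lie on 7 chromosomes of the ARS1.2 assembly, and all are protein-coding. MX2 (chromosome 1 from 141193475 to 141232778) and MX1 (141239169 to 141274229) are neighbours with a gap of 6390 bp, and IFIT3 (chromosome 26 from 40303996 to 40311119) and IFIT2 (40320328 to 40329156) are neighbours with a gap of 9208 bp. Reads of related sequence could be divided unevenly within such pairs. IFI6 lies on chromosome 2 from 10302852 to 10306587, IFI44 on chromosome 3 from 55187646 to 55206942 and RSAD2 on chromosome 11 from 89640199 to 89658757. ISG15 lies on chromosome 16 from 49962961 to 49964077, and IRF7 on chromosome 29 from 45828394 to 45831518.

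On the FPKM scale, which is per length and so can be compared between genes, IFI6 was far above the others. Its mean over the 20 libraries was 114.9 FPKM, followed by 9.84 for MX1, 6.57 for IFIT3, 4.64 for ISG15, 4.32 for IFIT2, 2.81 for IFI44 and 2.75 for MX2. RSAD2 and IRF7 had means of 1.23 and 1.06 FPKM. None of the 9 was listed at 0 in any library.

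**Figure D1:**
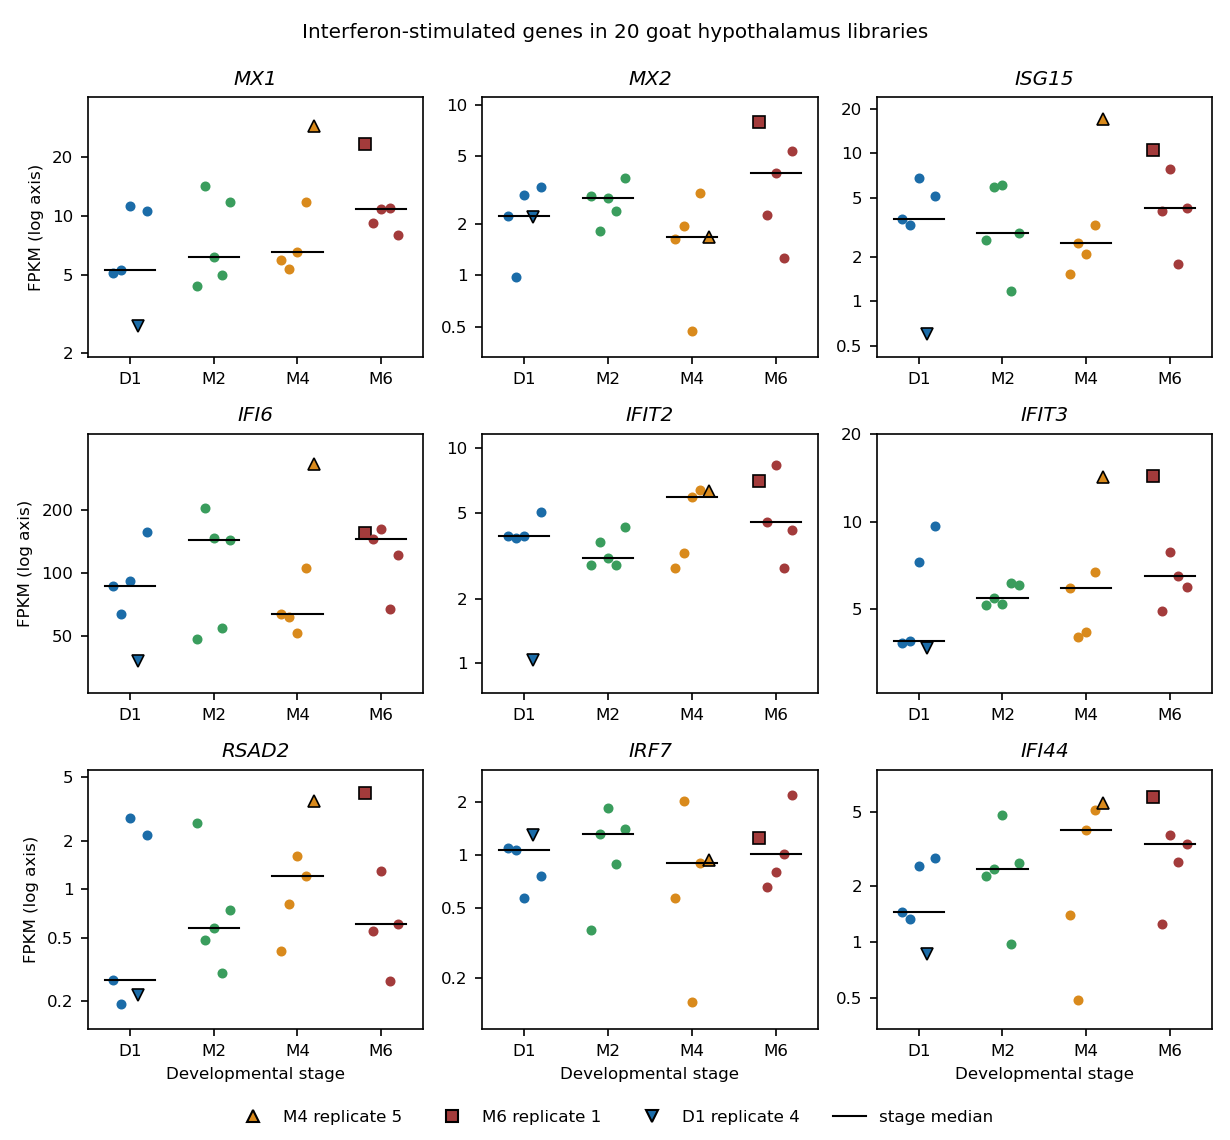
FPKM (log axis) of each interferon-stimulated gene in the 20 libraries by developmental stage, with 5 libraries per stage and a bar at the stage median. M4 replicate 5 (triangle) holds the highest value of MX1, ISG15 and IFI6, M6 replicate 1 (square) that of MX2, IFIT3, RSAD2 and IFI44, and D1 replicate 4 (inverted triangle) the lowest value of MX1, ISG15, IFI6, IFIT2 and IFIT3.

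Among the genes whose products act on viral proteins or their transport, ISG15, a ubiquitin-like protein that is joined to other proteins, showed the widest range. Its FPKM in replicates 1 to 5 was 3.62, 3.26, 6.74, 0.599 and 5.14 at D1 and 2.59, 5.87, 6.05, 1.17 and 2.87 at M2. It was 1.53, 2.47, 2.09, 3.25 and 17.0 at M4 and 10.5, 4.05, 7.84, 1.79 and 4.26 at M6. M4 replicate 5 was thus 7.45 times the median of the other 4 M4 libraries and M6 replicate 1 was 2.53 times that of the other 4 M6 libraries, while the 4 stages overlapped. The highest library was 28.4 times the lowest, D1 replicate 4.

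MX1 encodes a dynamin-like GTPase that traps viral nucleocapsids. Its FPKM was 5.13, 5.29, 11.2, 2.74 and 10.5 at D1 and 4.38, 14.2, 6.15, 4.99 and 11.7 at M2. It was 5.99, 5.39, 6.52, 11.7 and 28.6 at M4 and 23.2, 9.18, 10.9, 10.99 and 7.98 at M6. The order of the stage means was D1, M2, M4 and M6, but neighbouring stages overlapped, from 6.98 ± 3.70 FPKM (SD, n = 5) in the newborn goats and 8.29 ± 4.39 at M2 to 11.6 ± 9.80 in M4 and 12.5 ± 6.16 in M6. MX2, the neighbouring gene and also a GTPase, did not follow MX1 closely. It had 1.67 FPKM in M4 replicate 5, near the M4 median, and 7.90 FPKM in M6 replicate 1, its highest value. The other M6 libraries had between 1.27 and 5.36 FPKM of MX2, and its lowest value was 0.473 in M4 replicate 3. Its stage means were 2.33 ± 0.895 FPKM (SD, n = 5) in D1, 2.75 ± 0.706 in M2, 1.755 ± 0.916 in M4 and 4.15 ± 2.62 in M6, and all stages overlapped.

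IFI6, a small membrane protein that limits cell death and viral replication, had 86.8, 63.6, 91.5, 37.9 and 157.3 FPKM at D1 and 48.0, 204.7, 146.7, 54.3 and 143.8 at M2. It had 63.1, 61.4, 51.4, 105.5 and 332.3 FPKM at M4 and 154.9, 145.7, 161.7, 66.7 and 121.2 at M6. M4 replicate 5 was 5.34 times the median of the other 4 M4 libraries, whereas M6 replicate 1 was 1.16 times that of the other 4 M6 libraries and did not stand out. The libraries lowest in oligodendrocyte markers (D1 replicate 4, M2 replicates 1 and 4, M4 replicates 1 and 2 and M6 replicate 4) had between 37.9 and 66.7 FPKM of IFI6, as did D1 replicate 2 and M4 replicate 3, where those markers were not low.

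RSAD2 encodes the protein viperin, a radical SAM enzyme that makes a chain-terminating nucleotide. It had 0.274, 0.192, 2.79, 0.218 and 2.18 FPKM at D1 and 2.59, 0.484, 0.574, 0.3001 and 0.746 at M2. It had 0.412, 0.805, 1.61, 1.203 and 3.56 FPKM at M4 and 3.98, 0.552, 1.29, 0.267 and 0.610 at M6. Every stage had at least 1 library above 2.5 FPKM and at least 1 below 0.5, so the 4 stages covered nearly the same range.

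The IFIT genes encode proteins of tetratricopeptide repeats, some of which bind viral RNA. IFIT3 had 14.3 FPKM in both M4 replicate 5 and M6 replicate 1, and the other 18 libraries had at most 9.70. At M2 its 5 libraries lay between 5.19 and 6.18 FPKM, the narrowest range of the 4 stages. The SD within stages was 0.57 on the log2 scale for IFIT3 and 0.62 for IFIT2, the 2 lowest of the set. For IFIT2, D1 libraries held between 1.04 and 5.06 FPKM, M2 between 2.87 and 4.33, M4 between 2.78 and 6.42 and M6 between 2.78 and 8.38, with the highest value in M6 replicate 3.

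IFI44, a cytoplasmic protein induced by interferon, ranged over 0.871 to 2.83 FPKM among the D1 goats, 0.985 to 4.86 in M2, 0.488 to 5.65 in M4 and 1.26 to 6.07 in M6. Its means were 1.82 ± 0.849 (SD, n = 5), 2.65 ± 1.397, 3.35 ± 2.29 and 3.44 ± 1.76 FPKM in the same order. IRF7, the transcription factor that drives interferon alpha genes, was the exception of the set. It had 0.934 FPKM in M4 replicate 5 and 1.26 in M6 replicate 1, both inside the range of the other libraries. Its highest values were 2.19 in M6 replicate 5 and 2.04 in M4 replicate 2, and its lowest was 0.146 in M4 replicate 3. The mean of IRF7 in a stage lay between 0.918 ± 0.703 FPKM in M4 and 1.18 ± 0.605 in M6 (SD, n = 5).

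To see which goats were high over the whole set, log2(FPKM + 0.1) of each gene was centred on its mean over the 20 libraries and averaged over the 9 genes. M6 replicate 1 (1.25) and M4 replicate 5 (1.15) were highest, followed by M6 replicate 3 (0.60), D1 replicate 5 (0.48) and M4 replicate 4 (0.35). D1 replicate 4 was lowest (-1.16), below M2 replicate 4 (-0.66) and D1 replicate 2 (-0.61). The order of the 3 highest libraries and the lowest was the same with quantile normalization, median-ratio scaling and a pseudocount of 1 FPKM. D1 goats averaged -0.27 ± 0.68 (SD, n = 5), M2 goats -0.06 ± 0.40, M4 goats -0.01 ± 0.75 and M6 goats 0.34 ± 0.64, so the stages differed by less than the SD within D1, M4 or M6.

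**Figure D2:**
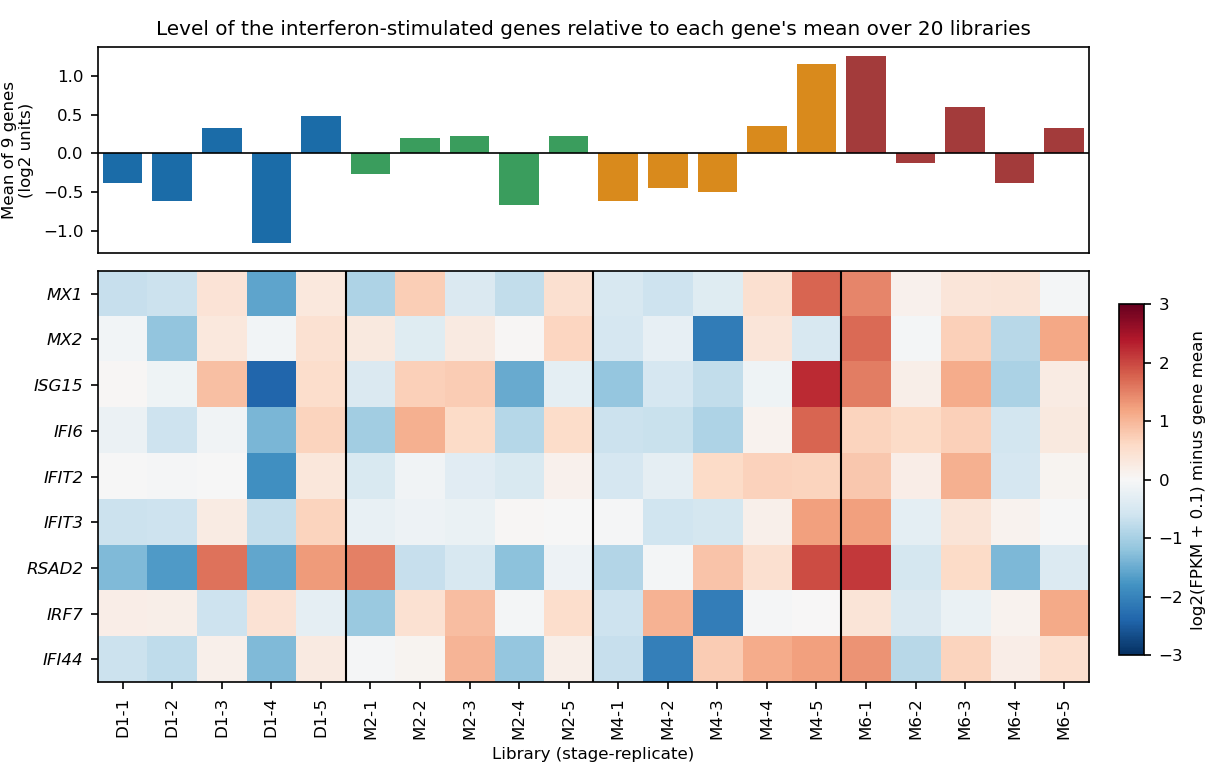
Upper panel, mean over the 9 interferon-stimulated genes of log2(FPKM + 0.1) minus the gene mean, in each of the 20 libraries (bars coloured by stage). Lower panel, the same quantity for each gene (red above and blue below its mean), in which M6-1 (1.25) and M4-5 (1.15) are red for most genes, D1-4 (-1.16) is blue for most, and IRF7 follows its own order.

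The 2 libraries with the highest average were described gene by gene because they stood out, so these counts are descriptions and carry no test. In M4 replicate 5, 8 of the 9 genes were above the median of the other 4 M4 libraries and 6 were at least 2 times that median, with a median ratio of 2.82. Of all genes tested with a ratio, 6.63% were at least 2 times as high there, and the median ratio was 0.968. In M6 replicate 1 all 9 genes were above the median of the other 4 M6 libraries and 5 were at least 2 times that median, with a median ratio of 2.30 and RSAD2 at 6.85. Of all genes, 4.47% reached 2 times there, and the median ratio was 0.968. M4 replicate 5 had the highest value of 3 of the 9 genes and M6 replicate 1 that of 4, which they had for 1.53% and 1.2% of all genes tested. Among the 3 highest libraries stood M4 replicate 5 for 6 of the 9 genes (7.24% of all genes) and M6 replicate 1 for 7 (8.2%). These 2 libraries were the highest pair of the 20 for 5 genes of the set (MX1, ISG15, IFIT3, RSAD2 and IFI44), and for 0.221% of all genes.

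D1 replicate 4 was the reverse. There, 6 of the 9 genes were at most 0.5 times the median of the other 4 D1 libraries, from 0.137 for ISG15 and 0.178 for RSAD2 to 0.431 for IFI44, against 15.0% of all genes. IRF7 was 1.41 times that median. The same library had 910.0 FPKM of oligodendrocyte markers in sum, against at least 10040 in the other D1 libraries. The part of that difference in the low values was not tested.

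The 9 genes did not all vary together. Over the 20 libraries, Pearson's r of log2(FPKM + 0.1) was 0.60 at the median of the 36 gene pairs and was highest for ISG15 and IFI6 (0.86), IFIT3 and MX1 (0.84) and IFI6 and MX1 (0.83). All pairs share the same libraries, so these values are a description. In the 28 pairs without IRF7 the median r was 0.64 and the lowest was 0.20. In the 8 pairs with IRF7 it lay between -0.34 and 0.48, with a median of 0.04. After the mean of each stage was subtracted, the median over the 28 pairs was 0.62. Among the other 18 goats, without M4 replicate 5 and M6 replicate 1, it was 0.50, with single pairs from 0.10 to 0.81. Over all 36 pairs the median was then 0.47, and over the 8 pairs with IRF7 it was -0.04. Pairs of genes outside the set were not compared. Against the mean of the other 8 genes, r was 0.86 for ISG15, 0.85 for MX1, 0.82 for IFIT3 and IFI6, 0.46 for MX2 and 0.03 for IRF7.

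Comparisons between stages used limma on log2(FPKM + 0.1) in a fit of all 20 libraries, and called a gene where the adjusted p was below 0.05 and the size of the log2 fold change reached 1. None of the 9 genes was called in any of the 6 comparisons (0 of 9 each), where M4 vs. D1 called 0.0537% of all genes, M6 vs. D1 called 0.00596% and the other 4 comparisons 0%. At an unadjusted p under 0.05, limma gave 1 of the 9 in M6 vs. M4, MX2, and 0 in the other 5 comparisons, against 6.87% of all genes in M6 vs. M4. Over all genes that share was 15.6% for M2 vs. D1, 8.68% for M4 vs. M2, 8.71% for M4 vs. D1, 7.41% for M6 vs. D1 and 6.14% for M6 vs. M2. The log2 fold change of MX2 in M6 vs. M4 was 1.13 (standard error 0.47, 95% interval 0.16 to 2.11, adjusted p = 0.6996 from limma). The MX2 value in every M4 library was at most 3.04 FPKM, and 3 M6 libraries were above it. Its adjusted p ranged from 0.496 to 1.00 over the alternatives.

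M6 vs. D1, the comparison of the oldest with the youngest goats, had the largest median difference and was chosen for description after the values were seen. All 9 genes were higher in mean at M6, with a median log2 fold change of 0.64, against -0.05 over all genes tested, of which 44.9% were higher. None of the 9 differences passed the threshold. The largest was that of MX1 at 0.89 (standard error 0.47, 95% interval -0.08 to 1.87, adjusted p = 0.708 from limma), followed by IFI44 at 0.84 (95% interval -0.34 to 2.03). IFI6, MX2, IFIT2 and ISG15 lay at 0.66, 0.65, 0.64 and 0.64, and IFIT3 at 0.49. RSAD2 had 0.42 (95% interval -1.16 to 1.99) and IRF7 0.21 (95% interval -0.81 to 1.24). The upper limits exceeded 1 for all 9 genes, so a 2-fold difference could not be told from none with 5 goats per stage.

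The single goats carried part of this difference. Without M4 replicate 5 and M6 replicate 1, the median log2 fold change over the 9 genes in M6 vs. D1 was 0.36, that in M4 vs. D1 went from 0.26 to -0.04 and that in M4 vs. M2 went from 0.10 to -0.24. The M6 vs. D1 median was also 0.36 without D1 replicate 4 alone. With the oligodendrocyte marker level as a covariate the M4 vs. D1 median was instead 0.94. RSAD2 in M6 vs. D1 was -0.09 without M6 replicate 1, and IRF7 was -0.02 without M6 replicate 5. Among the other comparisons, all 9 genes were higher in mean in M2 vs. D1 (44.8% of all genes, median of the 9 genes 0.16) and in M6 vs. M2 (51.9% of all genes, median 0.36). In M4 vs. M2, 6 of the 9 were higher (48.3% of all genes), in M6 vs. M4 8 of the 9 (53.9%, median 0.31) and in M4 vs. D1 7 of the 9 (43.7%). Single libraries moved these medians too. The sign turned in M2 vs. D1, M4 vs. M2 and M4 vs. D1, but not in M6 vs. M4 or M6 vs. M2. Leaving out 1 library at a time gave -0.02 (without D1 replicate 4) to 0.44 (without D1 replicate 5) in M2 vs. D1, and -0.24 (without M2 replicate 4 or M4 replicate 5) to 0.31 (without M4 replicate 2) in M4 vs. M2. It gave 0.06 (without M6 replicate 1) to 0.62 (without M4 replicate 5) in M6 vs. M4, -0.04 (without M4 replicate 5) to 0.49 (without D1 replicate 5) in M4 vs. D1, and 0.15 (without M6 replicate 1) to 0.64 (without M6 replicate 4) in M6 vs. M2. The comparisons share their libraries, so these counts are not separate observations.

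**Figure D3:**
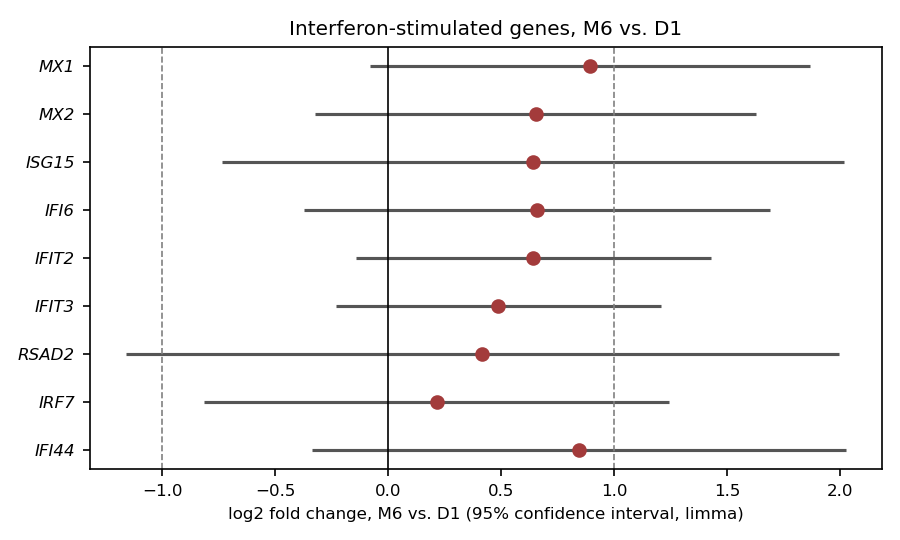
Log2 fold change in M6 vs. D1 (points) with its 95% confidence interval from limma (lines) for each interferon-stimulated gene, with dashed lines at the threshold of 1 in each direction. All 9 points lie above 0, from 0.21 for IRF7 to 0.89 for MX1, and all 9 intervals cross 0.

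The other genes of the pathway were read from lists of known genes. Of 8 interferon genes looked up by symbol, 4 were found in the annotation, IFNG, IFNA, IFNE and IFNK, and none of these passed the filter. IFNB1, IFNW1, IFNL3 and IFNT were not found by symbol, so their levels are unknown. IFNE reached 0.166 FPKM and IFNK 0.136 FPKM at most, and all 4 were listed at 0 in some libraries. In M4 replicate 5 all 4 were listed at 0, and in M6 replicate 1 IFNK had 0.0462 FPKM and IFNA 0.0153.

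Receptors and signal transducers were present at all ages. All 12 of their genes passed the filter, and 0 of 12 were called by limma in any comparison. The share called over all genes was at most 0.0537% in any comparison, here and for the pathway lists below. IFNGR1, a chain of the interferon gamma receptor, had a mean of 99.1 FPKM, JAK1 49.4 and IFNGR2 30.9. In M4 replicate 5, 2 of the 12 reached 2 times the median of the other 4 M4 libraries, IFNGR1 (2.09 times) and IRF9 (2.265 times), and the median ratio was 0.968, with JAK1 at 0.747. In M6 replicate 1, 0 of the 12 reached 2 times, the median ratio was 1.13, and IFNGR1, IRF9 and JAK1 were at 1.33, 1.16 and 1.10 times. IRF9 was named after its values were seen.

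Sensors of viral nucleic acids and their adaptors were high only in part in the same 2 goats, with a median ratio over 14 genes of 1.36 in M4 replicate 5, where 4 reached 2 times, and of 1.11 in M6 replicate 1, where 2 did. DDX58, which encodes the RNA helicase RIG-I, had 11.9 FPKM in M4 replicate 5 and 8.47 in M6 replicate 1, which is 3.18 and 2.62 times the median of the other 4 libraries. IFIH1, which encodes MDA5, another RNA helicase, had 7.01 and 6.60 FPKM there, 3.15 and 2.56 times that median. TBK1, the kinase downstream of the sensors, had 1.13 and 1.26 times, and the RNA sensor TLR3 1.71 and 1.09 times. MAVS, the adaptor that both helicases share, had 1.44 and 0.960 times. DHX58, a related helicase, was at 5.17 times in M4 replicate 5 but 0.792 times in M6 replicate 1. The adaptor TICAM1 (0.441 and 0.557 times) and the DNA sensor TLR9 (0.5697 and 0.357 times, at only 0.0541 and 0.0688 FPKM) were lower in both. Of the 14 sensors and adaptors, all of which passed the filter, 0 were called in any comparison by limma. In the F test 2 had an unadjusted p under 0.05, against 10.4% of all genes.

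Among 32 other interferon-stimulated genes, 23 were found by symbol and 22 passed the filter. In M4 replicate 5, 19 of the 22 were above the median of the other 4 M4 libraries, with a median ratio of 1.88, and 9 reached 2 times. In M6 replicate 1, 18 of the 22 were above the median of the other 4, with a median ratio of 1.498, and 4 reached 2 times. The 4 with the highest means were IFIT5 (29.2 FPKM), EIF2AK2 (26.9), CXCL10 (17.2) and ADAR (11.2). The chemokine gene CXCL10 had 22.2 FPKM in M4 replicate 5, 37.9 in M6 replicate 1 and its highest value, 59.2, in M6 replicate 3. EIF2AK2, the kinase PKR that halts translation, had 41.0 and 40.7 FPKM, 1.98 and 1.62 times the median of the other 4. ADAR, an RNA editing enzyme, was at 0.724 and 0.973 times. Of the 22 genes, 0 were called in any comparison by limma. In the F test 1 had an unadjusted p under 0.05, against 10.4% of all genes.

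The other interferon regulatory factors varied in both directions in these goats. IRF2, IRF3 and IRF8 had means of 11.6, 8.41 and 6.995 FPKM. The median ratio of the 7 genes was 0.692 in M4 replicate 5 and 1.13 in M6 replicate 1, and 0 of 7 were called by limma. The highest ratio was that of IRF4, at 10.53 in M6 replicate 1 (1.23 FPKM) and 0.292 in M4 replicate 5, and it was chosen after its values were seen. Of the negative regulators, PIAS1 (16.6 FPKM) and PTPN6 (5.11 FPKM) had ratios of 1.06 and 1.05 in M4 replicate 5 and 0.966 and 0.913 in M6 replicate 1. SOCS3 and SOCS1 had means of 0.434 and 0.0897 FPKM, and 0 of the 4 were called. In M4 replicate 5, SOCS3 was at 0.228 times (0.0737 FPKM), SOCS1 was listed at 0 and the median ratio of the 4 genes was 0.637. In M6 replicate 1, SOCS3 was at 1.35 times and the median ratio of the 3 genes with a ratio was 0.966.

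Genes of interferon gamma and antigen presentation were high in M4 replicate 5 more than in M6 replicate 1, with a median ratio of 1.69 and 1.12 over the 13 genes that passed the filter. B2M, the light chain of MHC class I, had a mean of 242.2 FPKM and was at 340.2 and 384.4 FPKM, 2.24 and 1.59 times the median of the other 4. PSMB10, CD74 and WARS had means of 19.4, 15.5 and 10.3 FPKM. CD74, the invariant chain of MHC class II, was at 1.69 and 1.46 times, PSMB10 at 1.42 and 0.703 times and WARS at 1.12 and 1.05 times. Of the 13, 0 were called by limma. In the F test 4 had an unadjusted p under 0.05, against 10.4% of all genes.

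**Figure D4:**
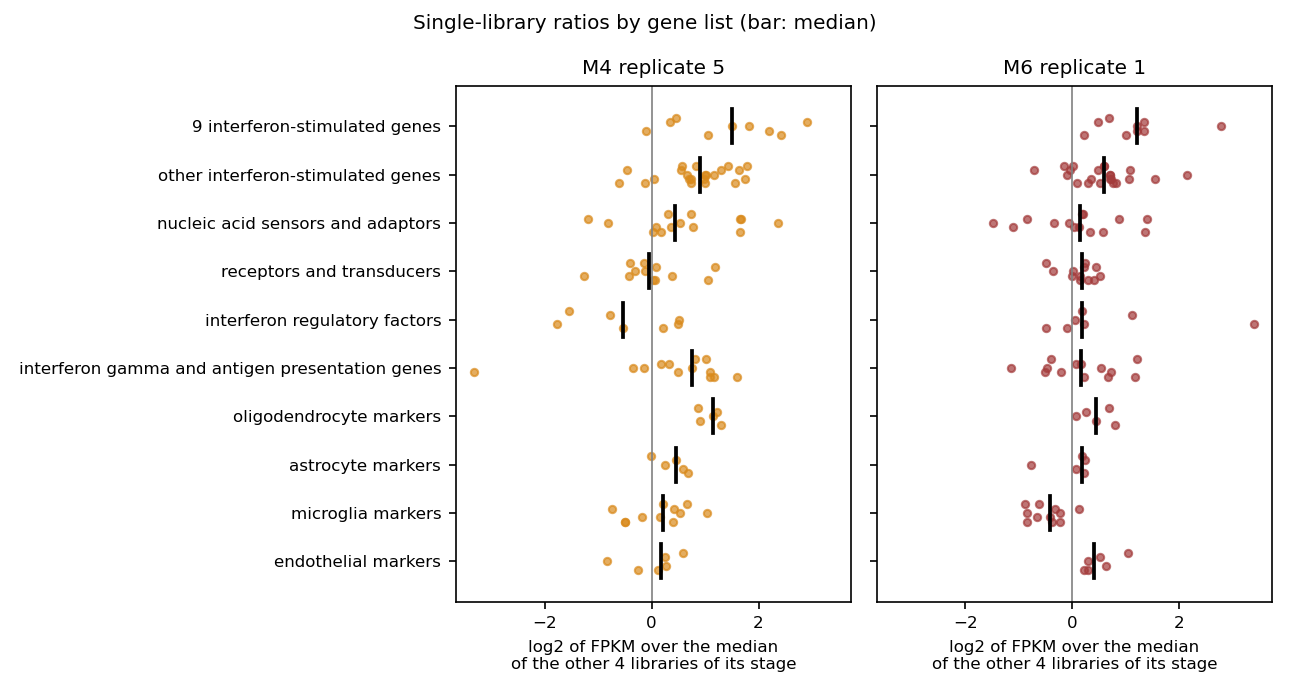
Ratio on a log2 axis of the FPKM in M4 replicate 5 (left) and M6 replicate 1 (right) to the median of the other 4 libraries of the same stage, with 1 point per gene that passed the filter and had a ratio above 0, and a bar at the median of each list. The median ratio was 2.82 and 2.30 for the 9 interferon-stimulated genes, 2.21 and 1.36 for oligodendrocyte markers and 1.16 and 0.753 for microglia markers.

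Markers of the cell types that the tissue could hold were set beside the same libraries. The 5 oligodendrocyte markers had a median ratio of 2.21 in M4 replicate 5 and 1.36 in M6 replicate 1, and all 5 were above the median of the other 4 libraries in both. Over the 20 libraries, their mean level correlated with that of the 9 genes with a Pearson's r of 0.60 and a Spearman's rho of 0.59. The r was 0.72 after the stage means were subtracted, and 0.58 without the 2 libraries farthest from the median marker level. The 2 measures did not always go together. D1 replicates 2 and 5 had 12950 and 13740 FPKM of oligodendrocyte markers in sum but averages of -0.61 and 0.48 over the 9 genes.

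The 5 neuron markers went the other way, with r = -0.52 and rho = -0.67, and the 5 astrocyte markers had r = 0.52 and rho = 0.59. The 11 microglia markers had r = 0.22 and rho = 0.35. Their summed FPKM ranged from 104.4 to 184.2 in D1, 117.0 to 320.5 in M2, 66.6 to 186.3 in M4 and 137.4 to 222.0 in M6, and was 156.0 in M4 replicate 5 and 137.4 in M6 replicate 1. Microglia markers were thus at the M4 median in the first library and at the lowest M6 value in the second. For the 6 endothelial markers r was 0.20. Markers of T and B lymphocytes were low but not all absent. Of the 9, 5 passed the filter and summed to at most 5.28 FPKM, with r = -0.15. CD8A was above 0 in all 20 libraries (0.438 to 2.12 FPKM, mean 1.21), CD3D and MS4A1 reached 2.43 and 2.33 FPKM in single libraries, and CD79A was listed at 0 in all 20. The 6 blood myeloid markers had r = 0.07. For the 6 hypothalamic peptide markers (OXT, AVP, HCRT, PMCH, TRH and SST) r was -0.06 and rho was 0.11. In M4 replicate 5 the peptide markers had their lowest mean level of the 20 libraries (-2.73), with a median ratio of 0.194 and 2 of 6 above 1. In M6 replicate 1 their level was the lowest of M6 (-0.495), with a median ratio of 0.024 and 1 of 6 above 1. These correlations are descriptions over the same 20 libraries. The parts of cell composition and of the tissue sampled in the levels were not tested.

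With the oligodendrocyte marker level of each library as a covariate in limma, chosen after the data were seen, 1 of the 9 genes was called in M4 vs. D1, where that fit called 0.507% of all genes (85, against 9 without the covariate). This was IFIT2, with a log2 fold change of 1.05 (adjusted p = 0.0314 from limma), against 0.54 without the covariate (standard error 0.38, adjusted p = 0.743). The IFIT2 difference without the covariate was 0.16 when D1 replicate 4 was left out. The adjusted p of IFIT2 in M4 vs. D1 ranged from 0.0314 to 0.984 over the alternatives. With the covariate, the median log2 fold change of the 9 genes in M4 vs. D1 was 0.94, and 0 of the 9 were called in M6 vs. D1 (0.602% of all genes), where the fold changes lay between 0.18 for IRF7 and 1.07 for IFI44. Oligodendrocyte markers were lower in mean at M4 than at D1, though 0 of the 5 were called. Of the red blood cell markers, ALAS2, the heme synthesis enzyme of erythroid cells, fell by 3.27 on the log2 scale in both M4 vs. D1 and M6 vs. D1 (adjusted p = 0.00694 and 0.0213 from limma). Its mean was 0.337 FPKM and it was listed at 0 in 9 of the 20 libraries, so the size of this fall depends on the 0.1 FPKM added before the log.

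**Figure D5:**
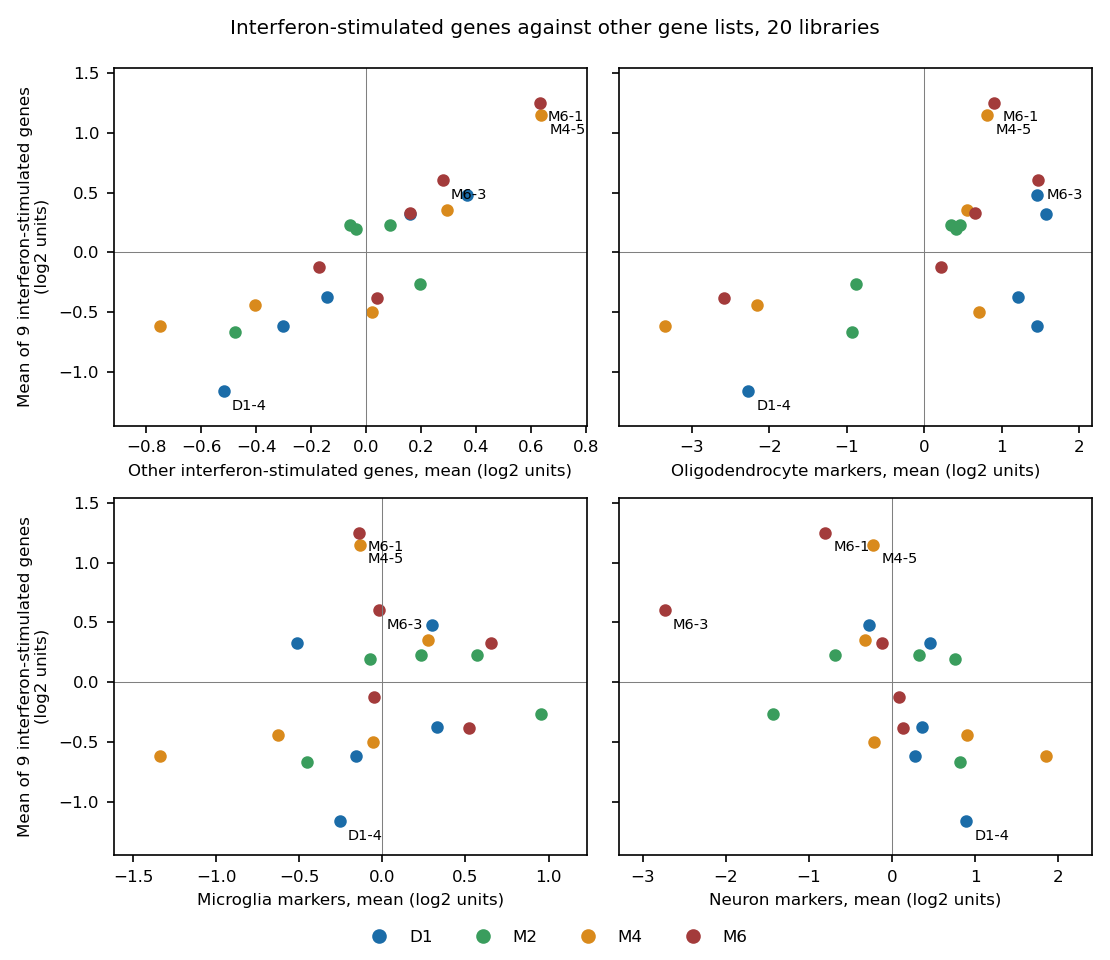
Mean level of the 9 interferon-stimulated genes (vertical axes, log2 units relative to the gene means) against the mean level of 4 other gene lists (horizontal axes, same units) in the 20 libraries, coloured by stage. The level follows that of the other interferon-stimulated genes (r = 0.88), is less close to that of oligodendrocyte markers (r = 0.60), shows little relation to microglia markers (r = 0.22) and is lower where neuron markers are higher (r = -0.52).

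Of the genes outside the set, the 5 whose log2(FPKM + 0.1) correlated most closely with the average of the 9 over the 20 libraries were LOC102190983 (r = 0.88, rho = 0.87), RTP4 (r = 0.87, rho = 0.84), PARP9 (r = 0.85, rho = 0.84), ASPA (r = 0.85, rho = 0.84) and IFI44L (r = 0.81, rho = 0.81). RTP4, PARP9 and IFI44L are among the other interferon-stimulated genes, and ASPA, aspartoacylase, is an enzyme of oligodendrocytes. LOC102190983 lies on chromosome 17 and carries no other name in the annotation. It ranged from 4.55 to 98.96 FPKM and was highest in M6 replicate 3. RTP4 ranged from 0.796 to 7.38 FPKM and was highest in M6 replicate 1, and PARP9 and IFI44L were highest in M4 replicate 5, at 9.28 and 13.9 FPKM. ASPA ranged from 8.07 to 86.3 FPKM and was highest in M6 replicate 1. Of the 16762 genes tested outside the set, 12 had an r above 0.8 and 5.63% one above 0.5, and the median was -0.04. Among the 22 other interferon-stimulated genes, 12 were above 0.5, as were 6 of the 14 sensors and adaptors and 2 of the 12 receptors and transducers. An r above 0.5 was not particular to the interferon pathway. All 5 oligodendrocyte markers and 3 of the 5 astrocyte markers had one, but 0 of the 5 neuron and 0 of the 11 microglia markers did.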

How the data were processed

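The authors trimmed reads with fastp, aligned them with HISAT2 2.0.5 to the goat genome (ARS1.2), assembled transcripts with StringTie 1.3.3b and deposited FPKM per gene, 1 column per goat. The low FPKM values are not whole multiples of a step, so reads and counting error were not recovered and the depth behind each value is unknown. Precision rests on the replicate spread. Gene IDs were matched to symbols through the RefSeq table of ARS1.2 (20610 of 21071 matched).

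Values were transformed to log2(FPKM + 0.1), and the 16771 genes that reached 0.1 FPKM in 5 or more libraries were fitted with limma 3.58.1 in R 4.3.3 (4 stages, moderated variances with a trend, Benjamini-Hochberg adjustment over all genes tested). Fold changes on this scale understate changes of low genes. The fit was tested on simulated data with independent normal deviations for each gene. Those data lack the differences between libraries that many genes share, so the test does not cover them. Other calculations used Python 3.11.15, pandas 2.3.3, numpy 2.4.6, scipy 1.17.1 and matplotlib 3.10.9.

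The 9 genes, the gene lists and the thresholds were chosen with earlier results of these data known. The text names the 9 genes, the 4 of highest mean FPKM in each pathway list, genes with an adjusted p under 0.05 and the 5 of highest correlation with the average of the 9. Some genes that this rule selects are not reported here. DDX58, IFIH1, DHX58, TICAM1, TLR9, IRF9, IRF4, OXT, AVP, HCRT and the other markers were named after their values were seen. A planned search of promoters was not run, and sequences were not analysed here. The alternatives were other pseudocounts, filters, normalizations, variances, weights, a replicate block, a fit of the 10 libraries compared, a call by adjusted p alone, and the omission of single libraries. The oligodendrocyte covariate and leaving out 2 libraries together were added after the data were seen.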

Additional observations from a re-analysis of the deposited data

Results flagged for a closer look

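Dixon's ratio was computed for the highest or lowest library among the 5 of a stage, for 9 genes in 4 stages (36 groups on each scale), against a critical value of 0.71 for 5 libraries. On the log2(FPKM + 0.1) scale 1 group passed, IFIT2 at D1, where D1 replicate 4 was lowest (0.822). M4 replicate 5 and M6 replicate 1 thus passed for no gene on that scale. The average over the 9 genes, computed beside these groups, also passed at none of the 4 stages. Its ratio was 0.453 for M4 replicate 5, 0.399 for M6 replicate 1, 0.333 for D1 replicate 4 and 0.443 for M2 replicate 4. On the FPKM scale 7 groups passed. M4 replicate 5 was highest for MX1 (0.728), ISG15 (0.889), IFI6 (0.808) and IFIT3 (0.736) at M4. M6 replicate 1 was highest for MX1 (0.803) and RSAD2 (0.723) at M6, and M2 replicate 1 was highest for RSAD2 at M2 (0.806). Over all genes tested, 8.32% of such groups passed on the log2 scale and 13.4% on the FPKM scale. Chance passes about 1 in 20 groups of normally distributed values, a rate that was not tested for FPKM. The genes share their libraries, so the 7 are not 7 separate observations.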

How the results depend on the processing

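Under every alternative run, 0 of the 9 interferon-stimulated genes had an adjusted p under 0.05 in the F test over stages, and 0 were called in M2 vs. D1, M4 vs. M2, M6 vs. M4, M6 vs. D1 and M6 vs. M2. In M4 vs. D1 the exception was 1 gene with the oligodendrocyte covariate; the cause was not tested. The number of all genes past the F test was 1, and was 4 with a pseudocount of 1 FPKM, 2 without a filter or without a variance trend, 170 with library quality weights, 75 with the oligodendrocyte covariate, and 0 with a pseudocount of 0.01 FPKM, a mean of at least 1 FPKM, median-ratio scaling, the replicate block, or M4 replicate 5 and M6 replicate 1 both left out. Leaving out single libraries gave between 0 and 17 such genes, the most without D1 replicate 4. Calls over all genes ranged from 0 to 148 in M2 vs. D1, 0 to 85 in M4 vs. D1 and 0 to 101 in M6 vs. D1, with the most under library quality weights in the first and under the covariate in the others. The log2 fold change in M6 vs. D1 reversed for RSAD2 without M6 replicate 1 (-0.0933), also when M4 replicate 5 was left out with it (-0.0933), and for IRF7 without M6 replicate 5 (-0.0223), and the cause was not tested. Leaving out single libraries gave -0.0933 to 0.9056 for RSAD2 and -0.0223 to 0.3747 for IRF7. The other 7 genes kept their direction there. Libraries with the same replicate number did not deviate together (30 pairs, r from -0.25 to 0.43, median -0.01), and 3 of 20 correlated best with their own number. With the replicate block, 0 of the 9 genes were called in any comparison. Without counts, differences of low genes such as RSAD2 and IRF7 cannot be weighed against counting error.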
